A study of Mus musculus with 12 samples.

Results

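Unstimulated macrophages grown from mouse bone marrow are described here through their RNA alone, as the resting state of these cells. They are 3 of the 12 RNA sequencing libraries of a study of the macrophage response to interferon gamma (IFNγ), and every entry of the untreated column of the expression table was taken, 46729 in all, with no comparison with the interferon groups. Purified marrow cells of C57BL6 mice were started with recombinant mouse interleukin-3 at 1 ng/ml together with 10% L-929 supernatant, a supply of CSF-1, the growth factor of macrophages. They were expanded in 20% of that supernatant without interleukin-3 and plated as a monolayer, with a differentiation time of 10 days, and the untreated group then received no IFNγ during the 8 h of the experiment. The labels name no genetic change, sex or age, and do not tell whether the libraries came from different animals. The table gives a single value per entry for the whole group, in FPKM (fragments per kilobase of transcript, corrected for library size), so no level below has a replicate error. Neither an order of genes nor a difference between neighbours in it could be tested, and the depth is unknown. As in any bulk sample, fewer cells of a type and less RNA per cell cannot be told apart.

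Macrophages are phagocytes that recognise microbes, dying cells and lipoproteins through surface receptors, digest them in acidic lysosomes, and secrete chemokines, proteases and growth factors. Their survival and growth depend on CSF1R, the CSF-1 receptor, and their lineage programme is built on PU.1, the transcription factor encoded by Spi1. In culture with CSF-1 alone they are usually regarded as resting, since no microbial product or activating cytokine is added. The cells described here had L-929 supernatant rather than CSF-1 alone, with interleukin-3 at the start, and are called resting in the sense of unstimulated.

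Among the values listed, translation and actin genes led the transcriptome of the resting cells. Several genes marked as having too many reads, described below, were listed at 0. Every rank and share of the sum in this report leaves them out, so their true places are unknown. Of the 46729 entries, 11586 (24.8%) were at 1 FPKM or higher, 6410 (13.7%) at 10 or higher and 1198 (2.56%) at 100 or higher. Among the 19836 entries of a single protein-coding gene, the same shares were 46.2%, 27.3% and 4.89%, and these are the background for every count of list members below. The median over the entries at 1 FPKM or higher was 12.4 FPKM. A set of 266 entries held 50% of the summed FPKM, and the 10 highest held 12.8%. The merged entry of Eef1a1 and Gm26377 was first with 38698 FPKM, or 5.03% of the sum. Eef1a1 is the elongation factor that brings aminoacyl-tRNA to the ribosome, and its own part of this level cannot be told. Actb, cytoplasmic actin, followed with 16813 FPKM, and Tmsb4x, the small protein that binds monomeric actin, with 11956 FPKM. These 3 entries alone made up 8.77% of the sum.

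**Figure D1:**
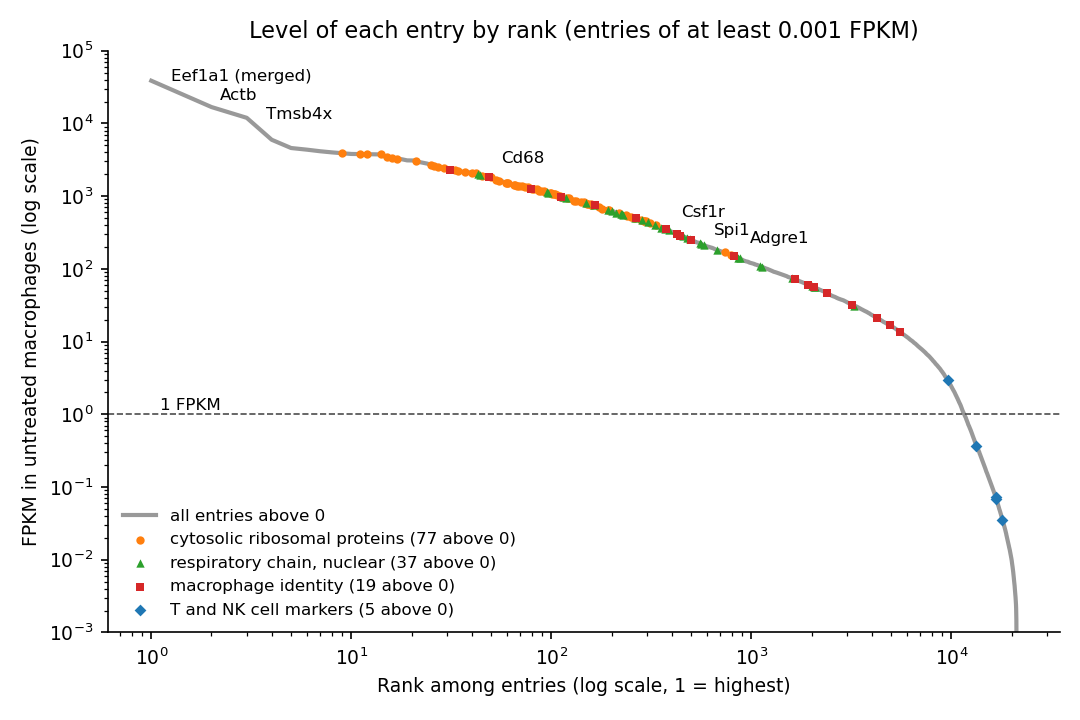
FPKM of every entry of at least 0.001 FPKM in untreated macrophages (vertical axis, log scale) against its rank (horizontal axis, log scale), with 4 gene lists marked by colour and shape and the line at 1 FPKM. The 77 ribosomal protein entries lie between 157 and 3903 FPKM and the 19 macrophage identity entries above 0 lie between 13.5 and 2311 FPKM, while 4 of the 5 T and NK cell marker entries above 0 lie under 1 FPKM.

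The genes that mark the lineage were abundant. Cd68, a glycoprotein of macrophage lysosomes (chr11:69664213-69666153, GRCm38), stood at 1814 FPKM, rank 49 of all entries. Csf1r (chr18:61100598-61132149) was at 349 FPKM. Spi1 (chr2:91082390-91115756) was at 250 FPKM, and Adgre1, the F4/80 antigen (chr17:57358691-57483527), at 151 FPKM. All 4 were thus above 100 FPKM, a level reached by 4.89% of protein-coding entries. In the wider list of 20 macrophage identity genes, 19 were above 10 FPKM and 11 above 100 FPKM. Its highest members were Tyrobp and Fcer1g, signalling adaptors of activating receptors, at 2311 and 1270 FPKM, and its lowest above 0 was Mertk, a receptor for dying cells, at 13.5 FPKM. The remaining member, the lysozyme gene Lyz2, was listed at 0.

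That 0 cannot be read as silence. In the authors' deposited table of a comparison between untreated and treated cells, 10 entries at 7 loci carried the mark for too many reads to be modelled. They correspond to 11 rows of the expression table, of which 9 were listed at 0 in untreated cells. Besides Lyz2 these were Psap, the precursor of the saposins of lysosomal lipid breakdown, the cathepsin genes Ctsb and Ctsd, the ferritin genes Fth1 (with 2 rows) and Ftl1, an unnamed gene at the Ftl1 locus, and Fdft1, which shares the locus of Ctsb. Lyz2, Psap, Ctsb and Ftl1 were above 0 in at least 1 of the other 3 columns of the table, whereas Ctsd was at 0 in all of them. A merged entry with mt-Co1 and most other mitochondrial protein genes was at 0 in all columns although the authors' deposited table gives it no such mark, while the neighbouring merged entry of mt-Nd1, mt-Nd2 and the mitochondrial ribosomal RNAs stood at 4594 FPKM. In all, 25589 entries were at 0 in untreated cells, and 345 of them were above 0 in all 3 other columns. Members at 0 are therefore counted apart and left out of the medians.

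All counted entries in a list of transcription factors of myeloid cells were detected. The list also holds general factors, among them Atf4, Max and Jun, so the count does not mark the lineage. Of 38 such entries, 32 were at 10 FPKM or higher and 4 at 100 or higher, with a median of 20.6 FPKM. Spi1 was first, followed by Maf, a large Maf factor of differentiated macrophages, at 201 FPKM, Atf4 of the amino acid response at 157 FPKM and Atf3 of the stress response at 114 FPKM. Among the C/EBP factors Cebpb (93.0 FPKM) and Cebpa (73.7 FPKM) lay close together, and among the MiT/TFE factors that drive lysosomal genes Tfeb (46.0 FPKM) and Tfe3 (43.4 FPKM) did. The lowest factor was Egr1, an immediate early gene, at 1.62 FPKM. Irf8 has no entry and was not analysed here, and Junb has 2 entries (0.409 and 70.4 FPKM) and was left out of the counts.

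Genes of macrophages resident in tissues were unequal. Of 23 entries, 11 were at 1 FPKM or higher and 5 reached 10 FPKM, close to the background of 46.2% and 27.3%. Among the 5 were Hmox1, which breaks down haem (220 FPKM), Id3 (126 FPKM), the integrin gene Itgax (46.7 FPKM) and the folate receptor gene Folr2 (15.3 FPKM). Several genes that define the macrophages of a single tissue were at or near 0. Clec4f of Kupffer cells, Gata6 of peritoneal macrophages, Sall1 of microglia and Car4 of alveolar macrophages were listed at 0, and Timd4 and Tmem119 were at 0.325 and 0.410 FPKM, while P2ry12 of microglia was at 3.35 FPKM. Genes of monocytes, the blood precursors, were low: none of 10 reached 10 FPKM, and Ccr2, which guides monocytes out of the marrow, was highest at 4.74 FPKM, with Ly6c2 at 0.229 FPKM. Osteoclasts arise from the same precursors, and part of their list was present. Atp6v0d2, a proton pump subunit used in osteoclast fusion, was at 94.6 FPKM and the collagen-degrading cathepsin Ctsk at 31.9 FPKM, but the calcitonin receptor gene Calcr was listed at 0 and Oscar at 0.00582 FPKM.

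Markers of other cells that marrow cultures can hold were sparse. In 9 lists with 95 entries in all, 30 were listed at 0 and 47 lay above 0 and under 1 FPKM. The share at 0 was near that of all entries of a single protein-coding gene, 6601 of 19836. Only 18 were at 1 FPKM or higher and 5 reached 10 FPKM, against 46.2% and 27.3% of protein-coding entries at those levels. The 5 were Pf4, platelet factor 4, at 472 FPKM, the stem cell antigen Ly6a at 18.1 FPKM, and 3 neutrophil genes, the collagenase Mmp8 (15.9 FPKM), S100a8 (13.3 FPKM) and the granulocyte growth factor receptor Csf3r (11 FPKM). Of the defining neutrophil genes, Ly6g, Camp and Retnlg were listed at 0, and Elane and Mpo, which mark granulocyte precursors, at 0.168 and 0.875 FPKM. Beside Pf4, the other platelet and megakaryocyte genes Itga2b and Ppbp stood at 1.04 and 0.491 FPKM, and the erythroid genes Gata1 and Hbb-bs were listed at 0. Cd3e, Cd3g and Cd8a of T cells, Pax5 of B cells, Cpa3 and Fcer1a of mast cells, and Dcn and Lum of stromal cells were all listed at 0. Some of these zeros did not recur in the other columns of the table. Camp and Gata1 were above 0 in all 3 other columns, and Ly6g, Cd8a, Cpa3 and Dcn in 2 of them. A 0 alone thus does not show that such a gene is silent. The highest values of lymphoid and dendritic markers were 8.98 FPKM for Ighm, the immunoglobulin heavy chain, and 5.94 FPKM for Batf3. What part contaminating cells have in these low values was not tested.

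**Figure D2:**
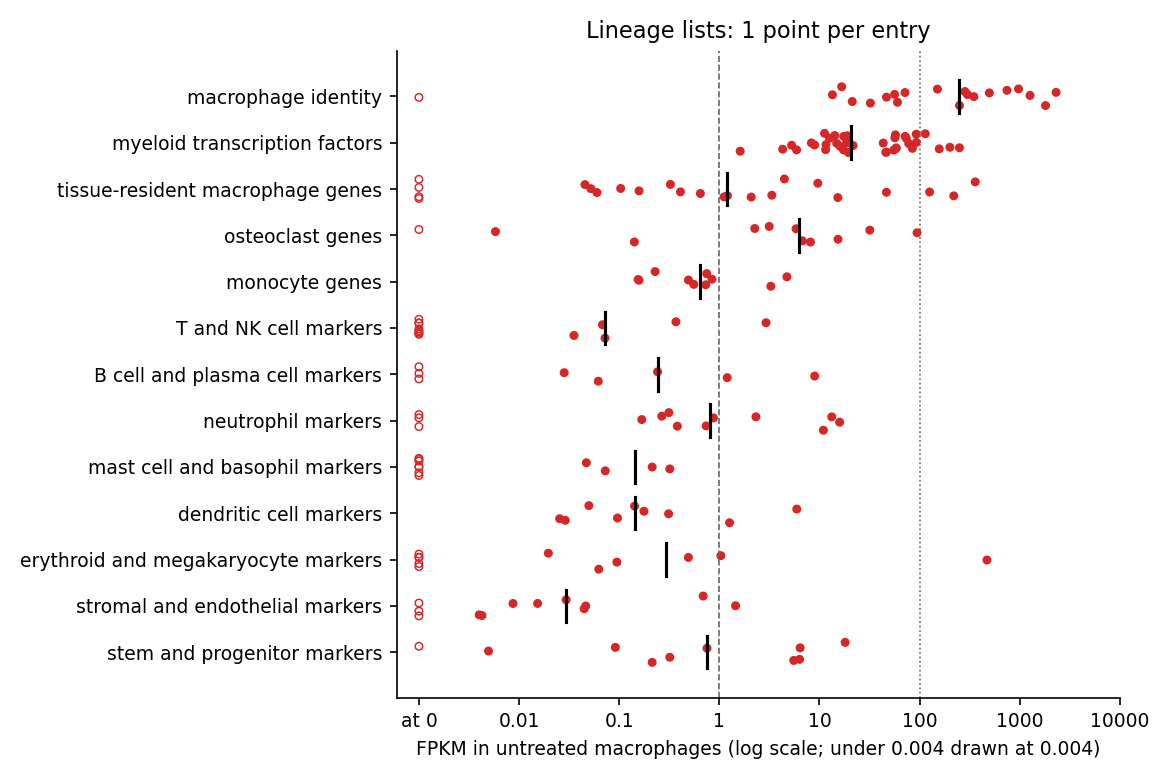
FPKM in untreated macrophages (horizontal axis, log scale) of the entries of 13 lineage lists, 1 filled point per entry above 0, open circles for entries listed at 0, and a black bar at the median of those above 0. The macrophage identity list has 19 of 20 entries right of 10 FPKM, and Pf4, at 472 FPKM, stands alone at the right of the lists of other cell types.

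The receptors for the culture's growth factors were present, and those of early progenitors were under 1 FPKM. Csf1r was highest with 349 FPKM. Il3ra, the specific chain of the interleukin-3 receptor, was at 71.5 FPKM, and the shared beta chains, both in merged entries with a microRNA, were at 21 FPKM (Csf2rb) and 15.9 FPKM (Csf2rb2). Csf2ra of the GM-CSF receptor was at 60.8 FPKM. Kit and Flt3, the receptors of early progenitors, were at 0.320 and 0.0255 FPKM.

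Both chains of the IFNγ receptor and its kinases were expressed in these cells, which were given no IFNγ. Ifngr1, the chain that binds the cytokine, was at 53.9 FPKM and Ifngr2, the signalling chain, at 37.0 FPKM. The kinase genes Jak1 and Jak2 stood at 26.9 and 4.77 FPKM, so Jak2 was the lowest of the 10 entries on the list. The type I interferon receptor chain Ifnar1 was at 24.8 FPKM, and Ifnar2 shares an entry with Il10rb (333 FPKM), so their reads cannot be told apart.

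Pattern receptors were unequal within their families. Of 21 entries for Toll-like receptors and their partners, 11 reached 10 FPKM. The accessory genes led: Cd14, which hands lipopolysaccharide to TLR4, was at 301 FPKM, and Unc93b1, which carries nucleic acid sensing receptors to endosomes, at 269 FPKM. Among the receptors themselves Tlr13, for bacterial ribosomal RNA, was highest at 70.1 FPKM, followed by Tlr7 for single-stranded RNA at 33.1 FPKM, Tlr2 for lipoproteins at 15.2 FPKM and Tlr4 at 10.5 FPKM. Tlr9, for CpG DNA, was at 0.474 FPKM, Tlr5 for flagellin at 0.220 FPKM, and Tlr11 was listed at 0. Of the C-type lectins Clec4d stood at 777 FPKM, above Clec12a (210 FPKM), the mannose receptor gene Mrc1 (88.5 FPKM) and the beta-glucan receptor gene Clec7a (72.1 FPKM). Clec4e, the partner of Clec4d in recognising mycobacterial glycolipid, was at 25 FPKM.

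Receptors for opsonised particles, modified lipoproteins and dying cells included many abundant surface genes. Of 14 scavenger receptor entries, 9 reached 10 FPKM and 5 reached 100 FPKM. After Cd68 came the stabilin gene Stab1 (684 FPKM), the endocytic receptor gene Lrp1 (622 FPKM), Cd36 (278 FPKM) and Msr1 (182 FPKM), whereas Cd163 for haemoglobin complexes and Marco were at 1.21 and 1.12 FPKM. Of the Fc gamma receptors, Fcgr3 took 68.5% of the summed FPKM with 272 FPKM, ahead of the inhibitory Fcgr2b (70.6 FPKM), the high-affinity Fcgr1 (32.3 FPKM) and Fcgr4 (22.3 FPKM). The integrin chain gene Itgb2 was at 249 FPKM and the complement anaphylatoxin receptor gene C3ar1 at 162 FPKM. Trem2, a lipid receptor that signals through Tyrobp, stood at 1601 FPKM, while the related Trem1, which amplifies inflammation, was at 0.370 FPKM. Sirpa, which reads the CD47 signal of healthy cells, was at 513 FPKM. Of the receptor tyrosine kinases for dying cells, Mertk (13.5 FPKM) and Axl (5.76 FPKM) were low beside their bridging ligand Gas6 (171 FPKM).

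Other receptors of cytokines, and those of chemokines and lipid mediators, lay at lower levels. Apart from the growth factor and interferon receptor lists above, no entry of 22 other cytokine receptors reached 100 FPKM. Among these 22, the tumour necrosis factor receptors Tnfrsf1a and Tnfrsf1b led with 76.6 and 63.6 FPKM. The interleukin-1 receptor gene Il1r1 was at 0.0403 FPKM. Of 17 chemokine and chemoattractant receptors, Cxcr4 was highest at 88.6 FPKM, and Ccr1 was at 18.0 FPKM. The ATP-gated channel gene P2rx4 (150 FPKM) and the UDP receptor gene P2ry6 (98.1 FPKM) were the highest of 21 purine and lipid receptors. Among nuclear receptors Nr1h2, the ubiquitous liver X receptor, was at 71.9 FPKM and Pparg at 18.7 FPKM, and Vdr, the vitamin D receptor gene, was at 0.115 FPKM.

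**Figure D3:**
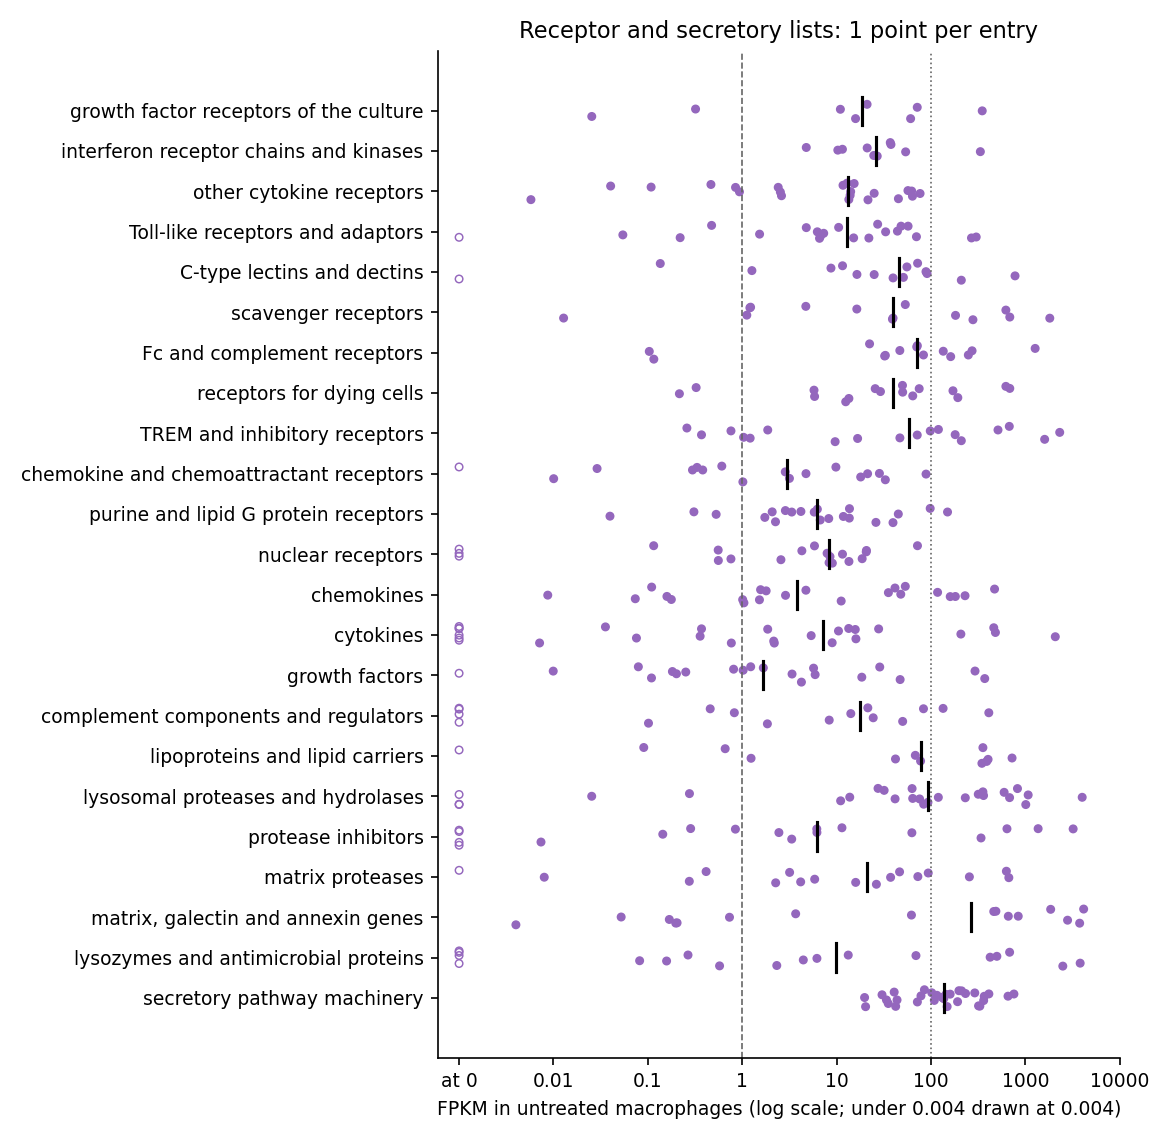
FPKM in untreated macrophages (horizontal axis, log scale) of the entries of 12 receptor lists and 11 secretory lists, with filled points for entries above 0, open circles for entries listed at 0, and black bars at medians of those above 0. All 31 entries of the secretory pathway machinery lie above 10 FPKM, whereas cytokines and chemokines spread from under 0.01 FPKM to 2075 and 472 FPKM.

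Levels of secreted products ranged widely within each list. Of 26 cytokine entries, 9 reached 10 FPKM, and 6 were listed at 0. Grn, progranulin, was highest at 2075 FPKM, followed by Mif (482 FPKM) and the merged entry of Spp1, osteopontin (462 FPKM). The inflammatory cytokines were unequal. Il15, Tnf and Il18 were at 16 FPKM, 15.8 FPKM and 13.4 FPKM, whereas Il1b was at 0.358 FPKM and Il6 at 0.00713 FPKM, and Il12a, Il12b and Ifnb1 were listed at 0. Of genes that restrain inflammation, Il10 was at 0.370 FPKM and the interleukin-1 receptor antagonist gene Il1rn at 27.9 FPKM. Among 22 chemokines, 10 reached 10 FPKM. Apart from Pf4, the highest were Ccl6 (229 FPKM), Ccl9 (181 FPKM), Cxcl14 (160 FPKM) and Ccl2, the monocyte attractant (117 FPKM). The IFNγ-responsive chemokine genes Cxcl9 and Cxcl10 were at 1.04 and 2.88 FPKM in these untreated cells.

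A few genes led the growth factor and complement lists. Of 20 growth factors, 5 reached 10 FPKM, near the background. Igf1, insulin-like growth factor 1, was at 371 FPKM and Tgfb1 at 293 FPKM, and Tgfb1 held 99.9% of the summed FPKM of the 3 transforming growth factor beta genes. Vegfb, at 47.1 FPKM, was higher than Vegfa at 5.70 FPKM. Properdin (Cfp), which stabilises the alternative pathway convertase, led the complement list at 410 FPKM, and the C1q chains C1qc, C1qa and C1qb stood at 134, 50.1 and 21.4 FPKM. These chains assemble in equal numbers, so their levels, with a ratio of 6.27 between the highest and the lowest, were unequal at the RNA level. C3 was at 8.35 FPKM. The median of the complement list was 17.8 FPKM without and 5.10 FPKM with its 4 members listed at 0.

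Lysosomal genes stood out by abundance. Of 26 proteases and hydrolases, 21 reached 10 FPKM and 11 reached 100 FPKM, and the list held 1.31% of the FPKM sum even though Ctsb, Ctsd and Psap were listed at 0. Ctss, the cathepsin that trims the invariant chain of MHC class II, was at 4000 FPKM, rank 8 of all entries. Ctsz (1071 FPKM), the hexosaminidase gene Hexa (1010 FPKM), Ctsa (825 FPKM), legumain (Lgmn, 680 FPKM) and Ctsl (596 FPKM) followed. Of the cysteine protease inhibitors, Cst3, cystatin C, stood at 3207 FPKM and Cstb at 1365 FPKM, whereas Stfa1, Stfa2 and Stfa3 were listed at 0. Of the proton pump that acidifies the compartment, 15 of 25 entries reached 100 FPKM. Tcirg1, the a3 subunit of lysosomes and osteoclasts, made up 84.7% of the a subunits with 844 FPKM, and of the B subunits Atp6v1b2 was at 115 FPKM and Atp6v1b1, the kidney form, was listed at 0. Among matrix proteases Adam15 (668 FPKM) and the macrophage elastase gene Mmp12 (629 FPKM) were highest, Mmp9 was at 2.26 FPKM and Mmp3 was listed at 0. Timp2, with 339 FPKM, held 99.3% of the tissue inhibitors of metalloproteinases measured. The galectin genes Lgals3 (4145 FPKM) and Lgals1 (3759 FPKM) were the highest of the list of matrix, galectin and annexin genes, followed by the intermediate filament gene Vim (2800 FPKM) and Gpnmb (1854 FPKM), while Fn1, fibronectin, was at 3.68 FPKM.

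The machinery that makes secreted and membrane proteins was expressed throughout. All 31 entries of the list reached 10 FPKM and 20 reached 100 FPKM. The chaperone genes Calr (756 FPKM), P4hb (655 FPKM) and Hspa5 (329 FPKM) of the endoplasmic reticulum were high, and Ssr1 of the translocon was lowest at 19.8 FPKM. Of the calcium-binding S100 genes, S100a6 was at 2493 FPKM and S100a4 at 3807 FPKM in a merged entry, whereas S100a8 and S100a9, which are typical of neutrophils, were at 13.3 and 2.32 FPKM. The antimicrobial genes Lcn2, Camp and Bpi, of the same cells, were at 0.0818 FPKM or listed at 0. Mpeg1, the pore-forming perforin-2 of macrophages, was at 499 FPKM, and Lyz1, the intestinal lysozyme gene next to Lyz2, at 4.44 FPKM.

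Lipid handling genes were led by Lpl, lipoprotein lipase, at 723 FPKM and the lipid droplet gene Plin2 at 498 FPKM. Npc2 (403 FPKM) and Lipa (355 FPKM), which release cholesterol in lysosomes, and the phospholipid transfer protein gene Pltp (389 FPKM) were also abundant. Apoe was at 68.2 FPKM. The cholesterol exporters Abca1 and Abcg1 were lower at 4.64 and 22.6 FPKM. Of 25 entries for sterol and fatty acid synthesis, 18 reached 10 FPKM and 2 reached 100 FPKM, with Fasn, the fatty acid synthase gene, at 17.9 FPKM. The stearoyl desaturase gene Scd1 was at 0.608 FPKM.

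Energy metabolism was represented by both glycolysis and respiration. All 27 glycolytic entries were at 1 FPKM or higher and 9 at 100 or higher, led by Gapdh (1435 FPKM), Aldoa (933 FPKM), Pkm (853 FPKM) and Ldha (658 FPKM). Gpi1 of the second step was at 395 FPKM and Pgk1 at 163 FPKM. Other genes of the early steps were lower: Hk3, the myeloid hexokinase, was at 98.5 FPKM, the phosphofructokinase genes Pfkp and Pfkl at 50.7 and 32.8 FPKM, and the glucose transporter gene Slc2a1 at 33.6 FPKM. Of the 37 nuclear entries of the respiratory chain, all reached 10 FPKM and 32 reached 100 FPKM, with a median of 366 FPKM. Atp5e of ATP synthase was highest at 2039 FPKM and cytochrome c (Cycs) lowest at 31.3 FPKM. The 11 ATP synthase subunits spanned a ratio of 9.64 and the 4 succinate dehydrogenase subunits a ratio of 2.11, from Sdhd at 103 FPKM to Sdhc at 218 FPKM. Fatty acid oxidation had 16 of 20 entries at 10 FPKM or higher, but the coactivator gene Ppargc1a was at 0.00437 FPKM.

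The side branches of glucose and amino acid metabolism were present as well. All 10 entries of the pentose phosphate pathway, the source of NADPH, were at 1 FPKM or higher, and the entry enzyme G6pdx was at 57.5 FPKM. Of the later enzymes, Taldo1 (562 FPKM) and Pgd (282 FPKM) were above it and Rpia (17 FPKM) and Rpe (11.3 FPKM) below. Of 25 entries around the tricarboxylic acid cycle, 23 reached 10 FPKM and 8 reached 100 FPKM. All 4 succinate dehydrogenase genes were among those 8, with Mdh2 at 155 FPKM, and citrate synthase (Cs) was at 49.4 FPKM. Slc3a2, the shared heavy chain of several amino acid transporters, was at 535 FPKM, far above the light chain genes Slc7a8 (65.7 FPKM) and Slc7a7 (28.7 FPKM). Slc7a5 has no entry and was not analysed here. Sat1, which begins polyamine breakdown, stood at 627 FPKM, against 18.1 FPKM for Odc1, which begins polyamine synthesis.

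The arginine enzymes that serve as classical readouts of macrophage activation were under 1 FPKM. Nos2, inducible nitric oxide synthase, was at 0.0921 FPKM and Arg1 at 0.242 FPKM, and Acod1, which makes itaconate, was at 2.44 FPKM. Of 14 markers of alternative activation, 7 were at 1 FPKM or higher, near the background of 46.2%. In the same list 5 reached 10 FPKM, near the background of 27.3%. These were Mrc1 (88.5 FPKM), the transglutaminase gene Tgm2 (29.6 FPKM), the interleukin-4 receptor gene Il4ra (21.5 FPKM), the lectin gene Clec10a (11.6 FPKM) and the transcription factor gene Egr2 (11.3 FPKM), while Retnla, Chil3 and Ccl17 were at 0.0385, 0.158 and 0.0736 FPKM. The subunits of the phagocyte NADPH oxidase, which makes superoxide, were at 420 FPKM for Ncf4, 162 FPKM for Ncf1 and 90.1 FPKM for Cybb. Cyba has no entry and was not analysed here. Antioxidant genes were abundant, with Prdx1 at 2165 FPKM, Gpx4, which repairs lipid peroxides, at 2129 FPKM, and Sod1 at 838 FPKM against 20.4 FPKM for the mitochondrial Sod2. In iron handling the haem-degrading genes Blvrb and Hmox1 stood at 362 and 220 FPKM and the iron exporter gene Slc40a1 at 46.4 FPKM, with both ferritin genes listed at 0 as described above.

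Interferon-stimulated genes were detectable in cells that received no interferon. All 25 entries of the list were at 1 FPKM or higher and 15 reached 10 FPKM. Ifitm3, which blocks viral entry, was highest at 754 FPKM and Bst2 was at 220 FPKM, whereas Isg15 was at 29.4 FPKM and Mx1 and Mx2, antiviral GTPases, at 1.54 and 1.94 FPKM. For antigen presentation, B2m stood at 2940 FPKM and the class I genes H2-K1 and H2-D1 at 543 and 482 FPKM. Class II was low: H2-Aa, H2-Eb1 and H2-Ab1 were at 13.2, 6.78 and 6.25 FPKM, and Ciita, their master regulator, at 0.157 FPKM. The invariant chain gene Cd74 was at 65.9 FPKM in a merged entry. Of the inflammasome genes the adaptor gene Pycard (107 FPKM) and Casp1 (75.7 FPKM) were higher than the sensor gene Nlrp3 (7.77 FPKM). Genes of nucleic acid sensing, a list that also holds adaptors and nucleases, were all detected, with 11 of 13 entries at 10 FPKM or higher. The lysosomal nuclease gene Dnase2a was highest at 162 FPKM. Those under 10 FPKM were sensors, the RNA sensor gene Ifih1 at 5.05 FPKM and the cytosolic DNA sensor cGAS (Mb21d1) at 5.01 FPKM. STING (Tmem173), the partner of cGAS, was at 13.9 FPKM.

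The cultures carried transcripts of cycling cells. All 33 entries for the cell cycle and DNA replication were above 1 FPKM and 30 reached 10 FPKM. Birc5 (survivin) was at 229 FPKM, Pcna at 216 FPKM, Cdk1 at 159 FPKM and Mki67 at 35.4 FPKM. The inhibitor gene Cdkn1a was at 121 FPKM. The 6 subunits of the minichromosome maintenance complex, the replicative helicase, ranged from 16 FPKM for Mcm2 to 75.7 FPKM for Mcm3. Among D cyclins, which CSF-1 induces in macrophages, Ccnd1 made up 61.0% and Ccnd2 was at 2.47 FPKM. Translation dominated the housekeeping genes: all 77 ribosomal protein entries were above 100 FPKM, with a median of 1156 FPKM and 14% of the FPKM sum. Many ribosomal protein genes have near-identical pseudogenes and 21 of these entries are merged, so their single levels are uncertain. Actin genes, needed for phagocytosis and movement, had 26 of 33 entries at 100 FPKM or higher. The 7 Arp2/3 subunits, which branch actin filaments, ranged from 139 FPKM for Actr2 to 919 FPKM for Arpc1b. Cofilin and profilin were present almost only as Cfl1 (2185 FPKM) and Pfn1 (2119 FPKM).

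The share of the highest paralog differed widely between families. In 11 of 32 families the highest member held at least 90% of the summed FPKM, among them the V-ATPase B subunits, whose other member was listed at 0. Aldoa exceeded Aldoc by a log2 difference of 5.13 on the log2(FPKM + 1) scale, Ldha exceeded Ldhb by 5.64 and Sod1 exceeded Sod2 by 5.29. At the other end, Tfeb and Tfe3 differed by 0.08, Coro1a and Coro1b by 0.21, and Slc2a1 and Slc2a6 by 0.28.

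**Figure D4:**
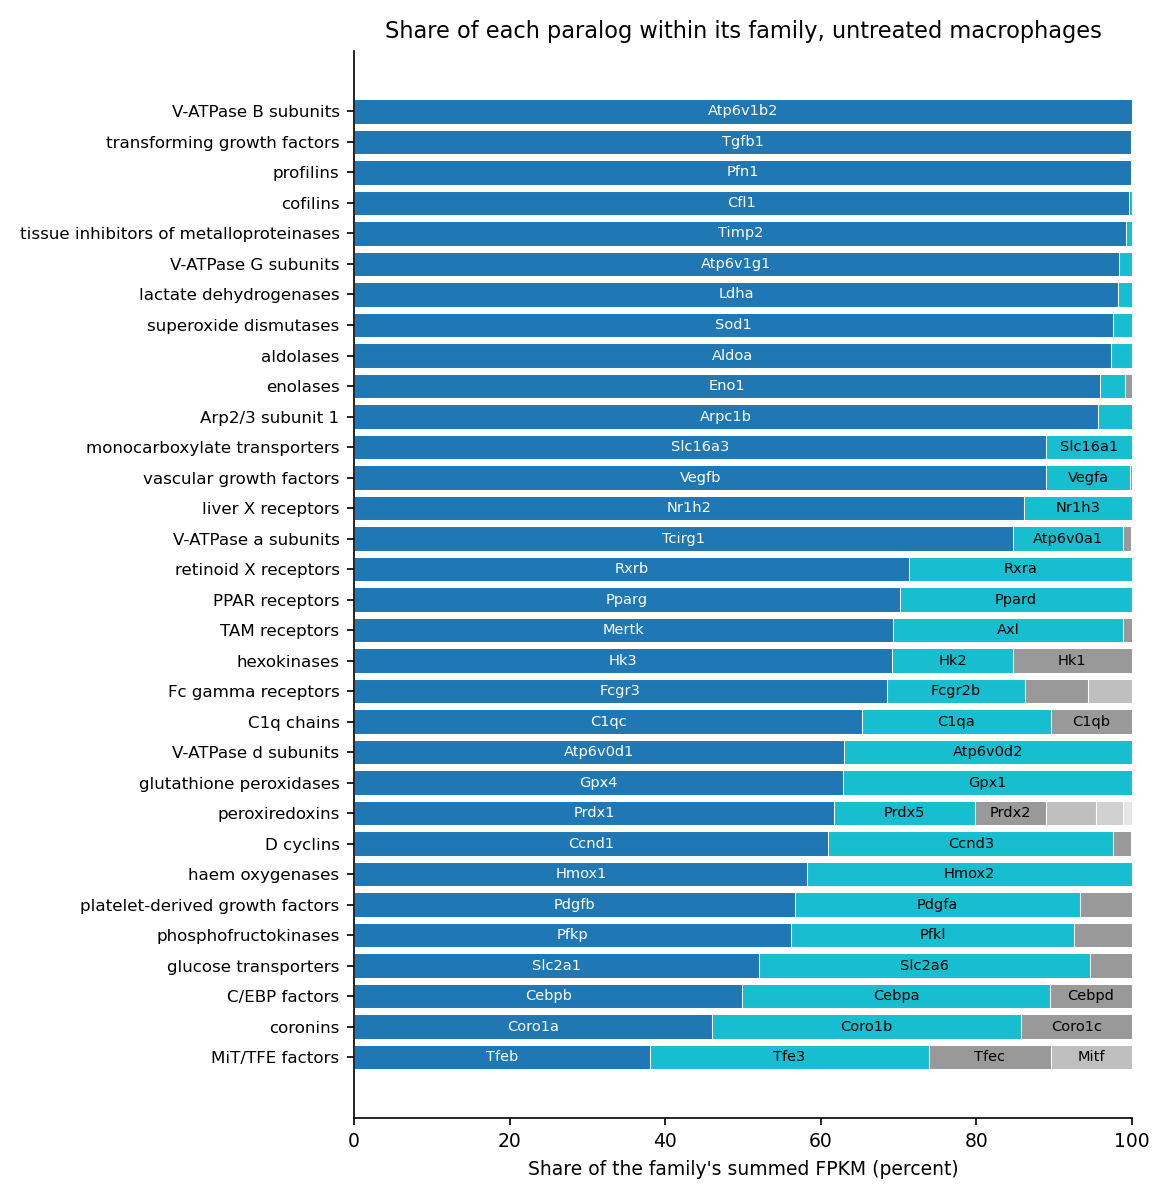
Share of each paralog in the summed FPKM of its family (horizontal axis, percent) for 32 families in untreated macrophages, ordered by the share of the highest member, which is drawn first in dark blue. Shares run from 100% for Atp6v1b2 down to 38.0% for Tfeb.

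Promoters of the macrophage identity list differed in their letters from those of housekeeping lists. Sequences from 250 bases before to 50 bases after the start farthest upstream came from RefSeq (GRCm38.p6) for 27025 genes, of which 14993 were protein-coding genes with an entry of their own. The ratio of observed to expected CpG, the dinucleotide that is depleted outside CpG islands, had a median of 0.20 in promoters of genes listed at 0, 0.48 in those above 0 and under 1 FPKM, and 0.77, 0.80 and 0.78 in those at 1 to under 10, 10 to under 100, and 100 FPKM or higher. The letters TATAAA were found on either strand in 23.9% of promoters of genes at 0 and in 11.9%, 6.02%, 5.91% and 9.54% of those in the 4 groups above, from under 1 FPKM to 100 FPKM or higher. The 14 macrophage identity promoters in the table had a median CpG ratio of 0.24, close to that of genes at 0, although their genes are abundant. This did not hold for all lineage lists, since the 32 promoters of myeloid transcription factors had a median of 0.81. The 28 promoters of the nuclear respiratory chain had a median of 0.86 and the 57 of ribosomal proteins 0.91.

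**Figure D5:**
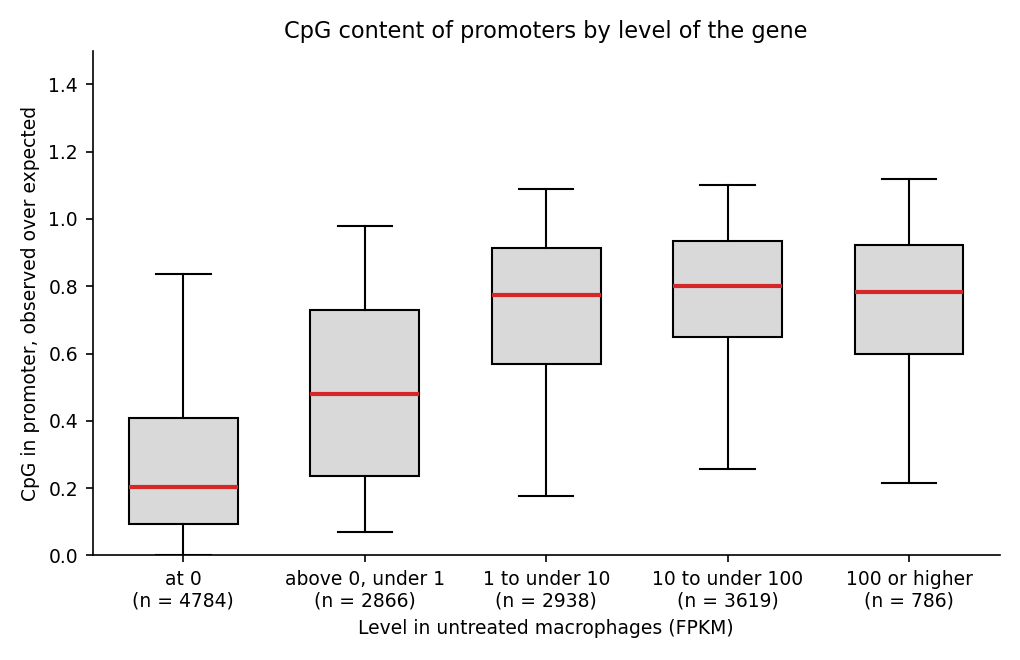
Observed over expected CpG in 300-base promoters (vertical axis) by the FPKM of the gene in untreated macrophages (horizontal axis), with boxes for quartiles, red lines for medians and whiskers at the percentiles 5 and 95. The medians are 0.20 for the 4784 genes listed at 0 and 0.77 to 0.80 in the 3 groups at 1 FPKM or higher.

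The core GAGGAA, part of many PU.1 sites, was found on either strand in 8 of the 14 macrophage identity promoters (57.1%), against 28.3% of all 27025. It was also frequent in lists whose genes were mostly under 1 FPKM, such as neutrophil markers (69.2% of 13) and T and NK cell markers (63.6% of 11). Lists with mostly expressed genes were unequal. TREM and inhibitory receptors had it in 81.8% of 11, C-type lectins in 66.7% of 12, and myeloid transcription factors in 15.6% of 32. The palindrome CACGTG, bound by TFEB and TFE3 among others, was in 5 of 18 lysosomal promoters (27.8%) against 7.24% of all. It was nearly as frequent in promoters of the V-ATPase (22.2% of 18) and of translation factors (22.2% of 18). The same was true of lysozymes and antimicrobial proteins (22.2% of 18) and of myeloid transcription factors (21.9% of 32). CACGTG was in 10.4%, 11% and 10.8% of promoters of genes at 1 to under 10, 10 to under 100, and 100 FPKM or higher. The palindrome of NRF1, a regulator of respiratory genes, was in 6 of 28 nuclear respiratory promoters (21.4%) against 4.82% of all. Its share was 13.3% in promoters of genes at 10 to under 100 FPKM and 13.4% at 100 FPKM or higher, and 22.2% of 18 for translation factors and 21.4% of 14 for proteasome genes. No test of these shares was made. A match is a description of the letters in this window, and none of these 3 motifs contains another. The highest genes of the 3 lists whose promoters hold the respective motif are printed to show these matches, with the matches in capitals, 5′ to 3′ on the strand of the gene. Cd68 and Laptm5, a lysosomal membrane protein gene of blood cells (975 FPKM), hold GAGGAA or its complement, Ctsl holds CACGTG, and Cox6a1, a cytochrome oxidase subunit gene (1117 FPKM), holds the NRF1 palindrome.
Cd68 (chr11:69666121-69666420, minus strand, GRCm38.p6): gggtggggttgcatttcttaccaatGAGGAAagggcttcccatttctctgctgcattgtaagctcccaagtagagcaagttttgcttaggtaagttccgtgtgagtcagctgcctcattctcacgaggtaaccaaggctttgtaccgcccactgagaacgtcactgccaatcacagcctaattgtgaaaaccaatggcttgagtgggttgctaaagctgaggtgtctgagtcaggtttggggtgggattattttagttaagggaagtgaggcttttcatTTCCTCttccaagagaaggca
Laptm5 (chr4:130913066-130913365, plus strand, GRCm38.p6): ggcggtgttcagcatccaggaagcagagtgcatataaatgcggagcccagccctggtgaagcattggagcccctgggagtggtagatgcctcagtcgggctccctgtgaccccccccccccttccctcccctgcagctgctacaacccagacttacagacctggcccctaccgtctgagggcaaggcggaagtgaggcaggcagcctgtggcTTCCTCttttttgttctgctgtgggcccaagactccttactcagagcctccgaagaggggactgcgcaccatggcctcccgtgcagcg
Ctsl (chr13:64370471-64370770, minus strand, GRCm38.p6): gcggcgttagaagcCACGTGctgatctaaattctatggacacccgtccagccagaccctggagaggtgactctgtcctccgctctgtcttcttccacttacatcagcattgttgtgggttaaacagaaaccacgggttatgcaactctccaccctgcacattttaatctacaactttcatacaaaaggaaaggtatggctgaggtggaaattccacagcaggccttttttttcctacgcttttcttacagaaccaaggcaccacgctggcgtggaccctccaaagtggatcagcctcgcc
Cox6a1 (chr5:115348909-115349208, minus strand, GRCm38.p6): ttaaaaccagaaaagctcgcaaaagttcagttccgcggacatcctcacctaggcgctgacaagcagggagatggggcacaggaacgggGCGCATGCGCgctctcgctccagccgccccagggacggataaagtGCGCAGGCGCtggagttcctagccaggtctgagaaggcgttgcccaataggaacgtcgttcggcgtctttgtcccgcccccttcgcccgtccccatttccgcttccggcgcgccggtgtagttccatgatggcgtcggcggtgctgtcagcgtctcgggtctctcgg
The Cd68 promoter has 2 matches, 1 of them downstream near the start, and a CpG ratio of 0.24, while that of Cox6a1 has 2 matches and a ratio of 1.08. Ctsl, with 0.55, and Laptm5, with 0.31, have 1 match each.

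Some short RNAs ranked high, and their sequences bear on how those levels can be read. The entry of Mir703, a microRNA gene of 109 nt (chr5:98475556-98475664), was sixth of all entries with 4361 FPKM. Over its whole length it aligned to Eef1a1, the first entry, at 98.2% identity on the same strand. The mature microRNA of RefSeq, with its seed (bases 2 to 8) in capitals, and the matching stretch of the 3′ UTR of Eef1a1, with the 21 identical bases in capitals, are shown to make this visible.
mmu-miR-703: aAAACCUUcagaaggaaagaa
Eef1a1 transcript, bases 1636 to 1656 in capitals: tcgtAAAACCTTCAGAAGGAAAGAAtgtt
The same 21 bases are also in transcripts of Gm23061, Gm26377 and Gm26384. Reads that do not reach a base that differs between these genes cannot be told apart. The levels of Mir703 and of the merged entry of Eef1a1 and Gm26377 are therefore uncertain. Of the 20 entries of RNAs under 200 nt at 100 FPKM or higher, 12 aligned over at least 50% of their length to a longer transcript whose gene was at 0.1 times their FPKM or more, 4 on the same strand and 8 on the opposite strand. Gm44364 (2326 FPKM) matched H2afj (373 FPKM) at 100% identity on the opposite strand. The blood cell microRNA gene Mir142 was listed at 0, while Mir142b, annotated on the opposite strand of the same place, was at 774 FPKM and the host transcript Mir142hg at 164 FPKM. The mature sequences below, again with seeds in capitals, include miR-142b, which is the reverse complement of part of the Mir142 hairpin.
mmu-miR-142a-5p: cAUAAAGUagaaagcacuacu
mmu-miR-142a-3p: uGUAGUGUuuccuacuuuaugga
mmu-miR-142b: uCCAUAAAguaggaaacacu
Strand information of the libraries was not given in the sources used here, and without it reads of Mir142 and Mir142b cannot be told apart. Of the 20 highest long noncoding entries of a single gene, 13 overlap a protein-coding gene of the other strand, counted over whole genes with introns. The same limit holds for them only where both RNAs cover the same bases, which was not checked.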

How the data were processed

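RNA was measured by sequencing in 3 untreated libraries of bone marrow macrophages. Per the submitters' processing notes, TopHat2 2.1.1, Cufflinks 2.1.1, Cuffdiff 2.1.1 and build mm10 were used. The deposited table holds FPKM with 1 value per entry and group, per the file headers. The untreated column has no unit in its header and was taken as FPKM from its range, which is that of the other columns. How the 3 libraries were combined (not given in the sources used here) is unknown. The other columns were read only for whether an entry was 0, and a second deposited table only for its status marks.

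Levels were counted and ranked with Python 3.11.15, pandas 2.3.3 and numpy 2.4.6, and plotted with matplotlib 3.10.9. Of 46729 entries, 96.2% matched GENCODE M21, and 1051 merge overlapping genes. Members of 64 gene lists and 32 paralog families were matched by symbol, and symbols with several entries were left out of list counts. Members and lists were chosen with earlier results of these data known. Named genes were by preference the 4 highest, the lowest and those at 0 of each list, and the 30 highest entries. Paralogs were compared as log2(FPKM + 1). Short RNAs (under 200 nt) were aligned to GENCODE transcripts with BLAST 2.17.0 at an E value of 1e-05. Counting functions were tested on simulated data. No test, p-value or standard deviation could be given, since a group has 1 value. Names turned into dates (24 entries) were not used as gene names. A few genes of the lists are not reported here.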

Additional observations from a re-analysis of the deposited data

How the results depend on the processing

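No paired analysis was possible because the table holds 1 value per group, and leaving out a replicate could not be run for the same reason. The count of entries at 1 FPKM or higher (11586) ranged from 8319 at a threshold of 5 FPKM to 12799 at 0.5 FPKM, and was 12041 after rescaling to a sum of 1000000. The share of the FPKM sum in the 10 highest entries was 12.8%, and 13% without RNAs under 200 nt and 9.72% without merged entries. That of the 100 highest was 34.8%, and 35%, 33.0% and 34.6% without short, merged and mitochondrial entries. The median over expressed entries was 12.4 FPKM and 1.79 FPKM over all entries above 0. Counting members at 0 as 0 moved 14 of 64 list medians by over 1.5 times, and using only entries of 1 gene moved 9 of 63. Entries of lists at 10 FPKM or higher numbered 722, and 750 after rescaling. With a pseudocount of 0.1, 26 of 32 log2 differences between paralogs moved, such as that of Tgfb1 over Tgfb3 from 7.96 to 10.02. Depth is unknown, so values near 0 have no stated precision.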

Other observations

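Entries outside all 64 lists were ranked after their values were seen. Ppia, the cyclophilin A gene, was at 3107 FPKM, Akr1a1, an aldehyde reductase gene, at 1866 FPKM, and Psme2, a proteasome activator gene, at 1643 FPKM. Alox5ap, the partner of 5-lipoxygenase in leukotriene synthesis, stood at 1507 FPKM. Npy, which encodes the peptide neuropeptide Y (chr6:49822710-49829507, GRCm38), was at 878 FPKM, rank 129 of all entries. The tetraspanin gene Cd63 was at 1227 FPKM and the metallothionein gene Mt1 at 844 FPKM.

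The labels give no sex. The Y-linked genes Eif2s3y and Ddx3y were at 83.0 and 35.2 FPKM, and the merged entry of Xist at 0.00738 FPKM. Of long noncoding entries, Malat1, a nuclear RNA, was at 550 FPKM. The antisense entry Gm37401 was higher at 1112 FPKM and overlaps Rhoa (272 FPKM), a gene of the other strand.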
